A study of Mus musculus with 23 samples.

Results

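Granzymes and the proteins that pack them are the killing apparatus of cytotoxic lymphocytes, and 8 of their genes were followed through the T cells and natural killer (NK) cells of mice with an altered STAT5B. The 8 genes were chosen by name from the 32285 in the matrices. They are the granzymes Gzma, Gzmb, Gzmk and Gzmm, the pore former Prf1, the granule membrane protein Nkg7, the granule proteoglycan Srgn and the lysosomal membrane protein Lamp1. All 8 were found in the deposited gene tables. The level of each was the number of its unique molecular identifiers (UMIs, each standing for 1 captured transcript), counted in cells that were gated on marker genes.

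Cytotoxic CD8 T cells and NK cells store granzymes, which are serine proteases, in secretory lysosomes. Perforin, the product of Prf1, opens the membrane of the target cell, and the granzymes that enter cleave proteins there. Serglycin, the product of Srgn, is the proteoglycan that holds granzymes in the granule, and LAMP1 appears on the cell surface when a granule fuses with it. STAT5B is activated by cytokines such as IL-2 and IL-15, and Prf1 and Gzmb are known to respond to these cytokines in lymphocytes.

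Libraries of single cells came from C57BL/6 mice of 2 months that carried wild-type (WT) Stat5b or a knock-in change of 1 tyrosine of the protein, to phenylalanine in Y665F and to histidine in Y665H. Both alleles were made by genome editing of fertilised eggs, with Cas9 and a donor oligo for Y665F and with a base editor for Y665H. In the lymph node (LN) the groups were WT (n = 2 libraries), Y665F heterozygotes (het, n = 3) and Y665F homozygotes (homo, n = 2), and Y665H was not among the LN samples used here. The spleen gave 1 library each of WT, Y665H and Y665F, made from CD45+ cells combined from 3 mice per group, with the zygosity not given in the labels. The altered protein is the germline form in every cell of these mice, so an effect within a T cell and an effect of its surroundings cannot be told apart. Nothing in the labels says that LN libraries with the same group name came from separate mice. The p-values below therefore measure the spread between libraries, which may be technical.

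LN libraries held between 4613 and 9220 barcodes. Depth differed widely: the median was 410 UMIs per kept cell in het replicate 3 and 436 in homo replicate 1, against 874 to 3119 in the other 5. Spleen medians were 5121.5 to 6707.5. At most 1.56% of the barcodes of an LN library were shared with another. Cells with under 200 genes or over 10% of mitochondrial UMIs were removed. A CD8 cell held a UMI of Cd8a or Cd8b1 and of a T cell receptor or CD3 gene, and none of Cd4 or Foxp3. CD4 and Foxp3 gates were built the same way, the latter for regulatory T cells, and NK cells held Ncr1 or Klrb1c and no UMI of CD3, Cd4, Cd8b1 or Foxp3. Cells with a B cell or myeloid marker UMI were left out, and a B cell gate served as the background for free RNA. LN gates held 999 to 2327 CD8, 122 to 871 CD4, 35 to 213 Foxp3 and 6 to 32 NK cells per library, and spleen gates 756 to 1404, 618 to 1020, 116 to 266 and 112 to 209.

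The gates were checked with genes they did not use. The summed level of 5 NK genes (Klre1, Tyrobp, Fcer1g, Klrd1, Txk) was 5336 to 8481 CPM (its UMIs scaled to 1000000 UMIs of the gate) in the LN NK gate and 277 to 337 in the LN CD8 gate. In the spleen it was 7048 to 7639 in the NK gate and 642.6 to 664.8 in the CD8 gate. The 4 regulatory T cell genes Il2ra, Ikzf2, Ctla4 and Il2rb summed to 1221 to 1855 CPM in the LN Foxp3 gate and 109 to 265 in the LN CD4 gate. Contigs of the T cell receptor, which were sequenced from the same LN cells, were found for 92.5% to 97.4% of CD8 cells, 91.3% to 98.1% of Foxp3 cells and 0 to 6.25% of NK cells.

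Among the 8 genes, 3 hold the letters TTCNNNGAA within the 300 bases around a RefSeq start (250 before, 50 after), in 3 of the 10 such windows of the 8 genes. These are the letters to which STAT factors are known to bind, and they read the same on both strands. Of all 32851 RefSeq mouse promoters of that length (GRCm38.p6), 8.30% hold them. All 3 matches are shown, with the match in capitals, to place these letters among the 8 genes. They are written 5′ to 3′ on the strand of the gene.
Gzmm: tgaatagcacTTCATGGAAcctgtgctgc
Nkg7: ccccaaggtcTTCCAGGAAaccagttgtc
Gzmb: ggcaggagttTTCATAGAAagca
The Gzmm stretch is chr10:79688924-79688952 on the plus strand, with the first base of the match at -86 from the start, outside the gene body of chr10:79689020-79695261. The Nkg7 stretch is chr7:43436908-43436936 on the plus strand, with the match at -220, ahead of the gene at chr7:43437073-43438249. The Gzmb stretch is chr14:56262285-56262307 on the minus strand, with the match at 38 after the RefSeq start. That is just beyond the end at which the GENCODE annotation of GRCm38 starts Gzmb (chr14:56258838-56262260). No match was found in the windows of Gzma (chr13:113093825-113100981), Gzmk (chr13:113171608-113225908), Prf1 (chr10:61297833-61304680), Srgn (chr10:62493833-62527451) or Lamp1 (chr8:13159161-13175338). A match is a string of letters, and binding was not measured here.

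In WT mice the granzymes were unevenly spread over the gates. Gzma, the most abundant granzyme transcript of resting mouse NK cells, was at 4186 and 6309 CPM in the NK gate of the 2 WT LN libraries, and at 8.81 and 4.17 CPM in the CD8 gate. Both LN CD4 libraries held Gzma as well, at 42.0 and 3.25 CPM, but in each a single cell carried every UMI. In the LN Foxp3 and B gates none was seen. In the WT spleen Gzma was at 9292 CPM in the NK gate, 231 in CD8, 52.0 in Foxp3, 33.7 in CD4 and 15.5 in B cells. In the WT spleen the order was thus NK, then CD8, then the other gates. The NK gate was highest in LN too, but the order below it was not settled there. CD4 Gzma came from 1 cell per library, whose 18 UMIs in WT replicate 1 placed CD4 above CD8. The Foxp3 gates held only 111 and 213 cells.

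Gzmb, the main inducible granzyme, followed the same order in the spleen, with 223 CPM in the NK gate, 16.3 in CD8, 6.78 in Foxp3 and 0.848 in CD4. LN NK cells held 920 and 351 CPM. The LN Foxp3 gate held 7.26 and 93.6 CPM against 5.42 and 1.39 in CD8, and 69.0% of the Gzmb UMIs of the higher Foxp3 library sat in 1 cell. The order of these LN gates below NK was therefore not settled by 2 libraries.

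Gzmm, a granzyme of innate-like and memory lymphocytes, had another order. In the WT spleen it was at 27.8 CPM in the NK gate (95% exact Poisson interval 18.3 to 40.5) and 26.3 (23.0 to 29.9) in CD8, which did not differ beyond counting error. It was at 1.19 in CD4 cells and at 0 in Foxp3 cells, where the limit that a count of 0 allows is 3 UMIs in 167 cells. LN CD8 cells held 12.9 and 9.46 CPM, and LN NK cells 0 and 95.6, the latter from 3 UMIs in 1 cell. Gzmk was low: at most 7.44 CPM in the WT spleen gates, in CD8 cells, and 0 or 0.835 in LN CD8 cells. In LN WT replicate 2 this was 3 UMIs, against 5 of Gzmb.

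Prf1 was higher in NK than in CD8 cells and higher in CD8 than in CD4 cells of both tissues. It was at 667 and 478 CPM in LN NK cells, 65.7 and 69.8 in CD8, 28.0 and 30.1 in CD4, and 7.26 and 3.23 in Foxp3. The Foxp3 values are 1 UMI per library, and both were below those of CD4. In WT replicate 2 the exact Poisson intervals were apart, at 0.0817 to 18.0 in Foxp3 and 21.2 to 41.5 in CD4. In WT replicate 1 they overlapped, at 0.184 to 40.5 and 14.5 to 48.9. The Foxp3 value was the lower in every mutant LN library too. Het libraries held 6.47, 7.70 and 0 CPM against 29.6, 23.8 and 16.5 in CD4. Homo libraries held 0 and 7.16 against 35.2 and 34.7. Among these the intervals were apart only in het replicate 1, at 1.76 to 16.6 in Foxp3 and 23.3 to 37.1 in CD4. The counts of 0 came from 35 and 52 Foxp3 cells, beside 1 and 2 UMIs in CD4. Nkg7, which is needed for granule release, was at 3312 and 3824 CPM in LN NK cells and at 779 and 722 in CD8, but at 11.7 and 17.9 in CD4. Neither gene overlapped between NK, CD8 and CD4 gates in the 2 LN libraries. Srgn and Lamp1 were not lineage restricted. Srgn was highest in the LN Foxp3 gate (1024 and 991 CPM) and also reached 738 and 808 in B cells, above the 329 and 372 of CD8 cells. Lamp1 stayed between 58.1 and 136 CPM in every LN gate of WT mice and between 71.0 and 118 in the spleen gates.

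**Figure D1:**
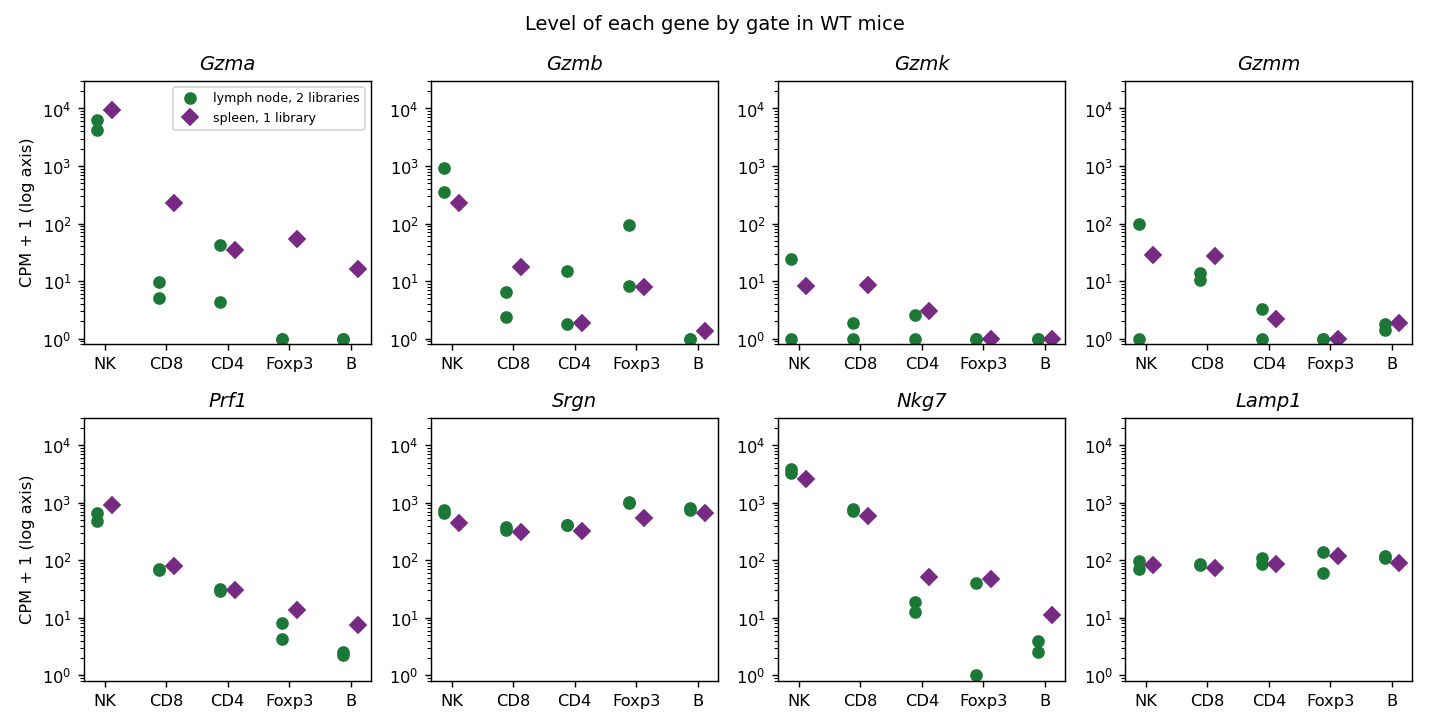
Level of each of the 8 genes in 5 gates of WT mice, as CPM + 1 on a log axis. Circles are the 2 lymph node libraries and diamonds the spleen library. Gzma, Prf1 and Nkg7 were highest in NK cells, while Srgn and Lamp1 were found in all gates, B cells included.

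The comparison of WT, het and homo lymph nodes asked whether Y665F changes the cytotoxic genes of T cells. In LN CD8 cells 1 of the 7 genes with enough counts rose in both contrasts, and it was Gzmm. Of the 9483 genes tested there, 1.23% were called for homo against WT and 0.506% for het, where called means an adjusted p under 0.05 and a log2 fold change over 1 in size. Called higher were 0.875% and 0.401%. The median log2 fold change of the 7 genes was 0.44 for homo and 0.16 for het, against -0.0084 and -0.0085 over all genes tested. The 8th gene, Gzmk, was too low to test.

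Gzmm was at 12.9 and 9.46 CPM in the CD8 cells of WT libraries, at 45.6, 37.2 and 56.3 in the het libraries, and at 78.8 and 75.7 in homo. No library of one genotype reached the range of the next, and het lay between WT and homo. How many other genes of the gate separated in this way was not counted. The group means were 11.2 ± 2.42 (SD, n = 2), 46.3 ± 9.59 (n = 3) and 77.3 ± 2.21 (n = 2). The log2 fold change was 2.92 (SE 0.219) for homo against WT, with an adjusted p of 1.15e-08 by the edgeR quasi-likelihood test. For het it was 2.11 (SE 0.205), adjusted p = 2.07e-06. Leaving out any 1 library moved these between 2.58 and 3.09 and between 1.77 and 2.28.

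The rise was also seen as a share of cells. Since depth differs, each cell was thinned to 300 UMIs, and the share of CD8 cells that then held a Gzmm UMI was 0.291% and 0.216% in WT, 1.13%, 0.853% and 1.56% in the het libraries, and 2.15% and 1.80% in homo. Of the CD8 cells of the 2 shallow libraries, 972 of 999 and 1204 of 1236 were deep enough to be thinned, as were all cells of the other 5. Every library was again above all those of the genotype before it. The exact two-sided permutation test of the order WT, het, homo gave p = 0.00952, the smallest of its 210 arrangements. That smallest p was reached, in either direction, by 2.61% of all genes in this gate. Among all 10909 genes in this gate 6.63% had an exact p under 0.05, and 2.92% of the 10909 had one and rose. Without thinning the shares were 1.24% and 1.20% in WT, 9.56%, 5.46% and 2.70% in the het libraries, and 3.88% and 7.59% in homo (exact permutation p = 0.152). There the 2 shallow libraries had the lowest share of their genotype. With both shallow libraries left out, an alternative added after the data were seen, p was 0.0667, which is the smallest that the remaining 5 allow. In the LN B gate 0 to 0.273% of cells held a Gzmm UMI at 300 UMIs, and the upper end of this came from 1 cell of homo replicate 1. Median depth in that gate was 297 to 1944 UMIs, against 507 to 3889 in CD8 cells.

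Gzmb did not pass the test in LN CD8 cells. Levels were 5.42 and 1.39 CPM in WT, 3.95, 2.20 and 14.5 in the het libraries, and 2.87 and 15.1 in homo, so all groups overlapped. The log2 fold change for homo was 2.22 (SE 0.656, adjusted p = 0.0967), and for het 0.69 (adjusted p = 0.821). The value for homo turned on single libraries: it was 0.12 without homo replicate 2 and 3.14 without WT replicate 1, where it passed (adjusted p = 0.0163). It also passed with both shallow libraries left out (2.61, adjusted p = 0.019), without homo replicate 1 (2.59, adjusted p = 0.0489) and with no filter on low counts (2.23, adjusted p = 3.58e-04). Few cells carried the transcript: 3 and 4 of the WT gates, 16, 7 and 1 of the het gates, 2 and 11 of the homo gates, and in het replicate 3 a single cell held all 8 UMIs.

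Gzma was as scarce in these cells. It was at 8.81 and 4.17 CPM in WT, 6.49, 2.52 and 16.3 in the het libraries, and 2.87 and 9.09 in homo, with 88.9% of the UMIs of the highest library in 1 cell. Its log2 fold changes of 0.47 (SE 0.584) and 0.12 (SE 0.479) did not pass the test and changed sign under several alternatives. Gzmk was found in 0 and 3 CD8 cells of WT libraries, 12, 5 and 1 of the het, and 1 and 3 of the homo, which gave 0 to 3.63 CPM and no test.

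The other granule genes differed less. Nkg7 was at 779 and 722 CPM in WT, 874, 907 and 1071 in the het libraries, and 1107 and 903 in homo. The log2 fold changes of 0.44 (SE 0.143, adjusted p = 0.135) for homo and 0.38 (SE 0.131, adjusted p = 0.293) for het did not pass the edgeR test. Srgn was at 329 and 372 CPM in WT, 385, 354 and 385 in the het libraries, and 407 and 409 in homo, with a log2 fold change of 0.25 for homo (SE 0.128, adjusted p = 0.387). Its thinned share of 9.16% and 9.94% in WT, 9.91% to 10.8% in het and 11.3% and 11.7% in homo gave an exact permutation p of 0.0286. That order was lost without thinning (exact permutation p = 1), with at least 500 genes per barcode (0.152) and with both shallow libraries left out (0.20). Leaving out 1 library gave 0.0222 to 0.10, with values over 0.05 without WT replicate 1, het replicate 1 or 3, or either homo replicate.

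Lamp1 and Prf1 showed no difference that passed. Lamp1 was at 86.7 and 80.1 CPM in WT, 82.1, 84.1 and 116 in the het libraries, and 132 and 86.5 in homo. The 2 highest were the 2 shallow libraries, and the log2 fold change for homo was 0.34 (SE 0.172, adjusted p = 0.382). Prf1 was the steadiest of the 8, with 65.7 and 69.8 CPM in WT, 77.1, 70.2 and 65.4 in the het libraries, and 67.4 and 72.3 in homo. Its log2 fold change was 0.10 (SE 0.151) for homo and 0.16 (SE 0.124) for het. Thinned shares of Nkg7, Lamp1, Gzmb, Gzmk, Gzma and Prf1 gave exact permutation p-values of 0.0762, 0.152, 0.276, 0.276, 0.648 and 1.

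**Figure D2:**
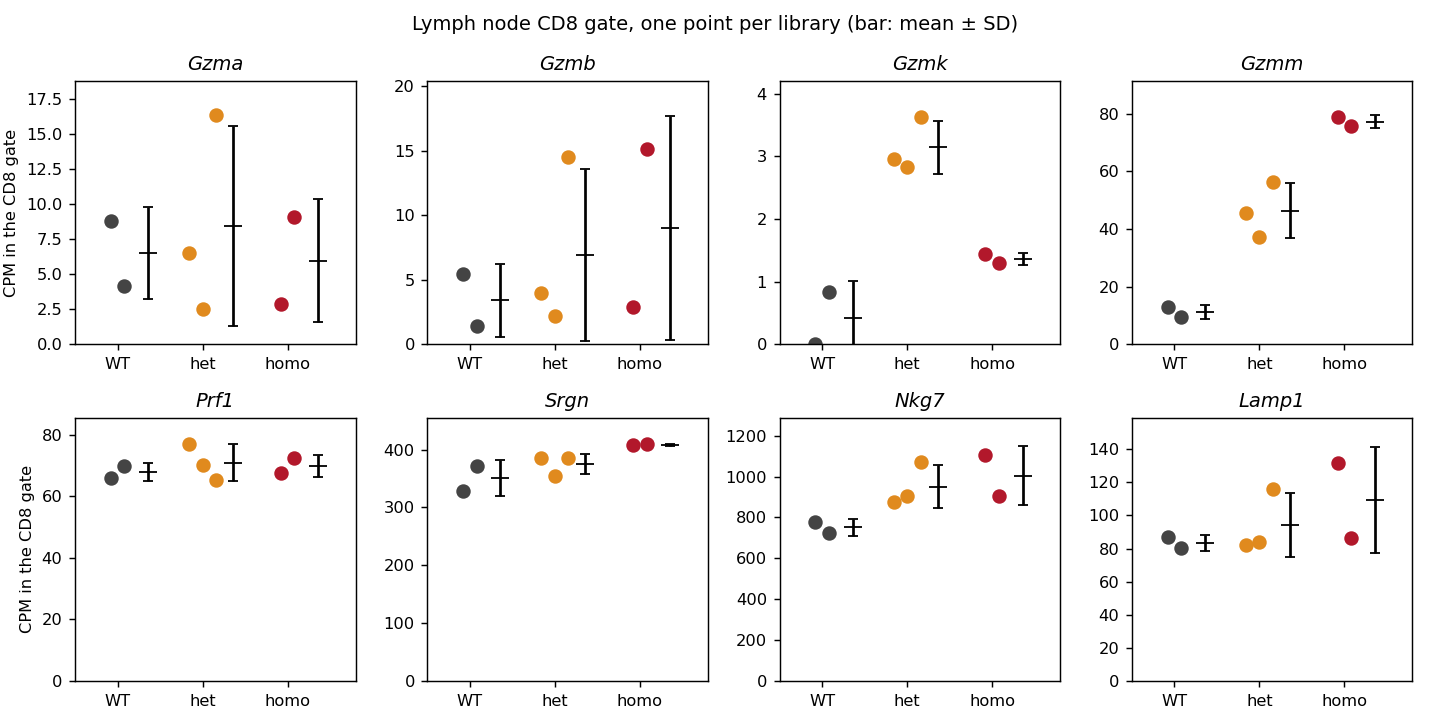
Level of the 8 genes in the lymph node CD8 gate (CPM, axes from 0), 1 point per library with the mean ± SD of each genotype beside it. For Gzmm the 3 genotypes do not overlap, from 9.46 to 12.9 in WT up to 75.7 and 78.8 in homo, whereas the Gzmb and Gzma ranges overlap and Prf1 stays between 65.4 and 77.1.

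Markers of memory CD8 T cells moved with Gzmm. The summed level of 9 memory genes in the CD8 gate was 1098 to 1350 CPM in WT, 2456 to 3266 in het and 4123 to 4744 in homo. Of these 9 genes, 5 rose for homo (Ccl5, Cxcr3, Ly6c2, Cd44 and Il2rb) and 2 for het (Ccl5 and Cxcr3). Among all genes tested in the gate, 0.875% were called higher for homo and 0.401% for het. The chemokine Ccl5 had a log2 fold change of 3.43 (SE 0.222) for homo. Without WT replicate 2 the calls of Cd44 (log2 fold change 0.83), Il2rb (0.82) and Ly6c2 (0.996) for homo and of Cxcr3 (0.84) for het were lost, and that of Cd44 was lost also without homo replicate 1 (0.94) or 2 (1.24). Ly6c2 was called for het without WT replicate 1 (1.08). The share of CD8 cells with a Ccl5 UMI, thinned to 300, was 3.64% and 3.15% in WT, 17.9%, 13.6% and 23.4% in the het libraries, and 31.1% and 33.0% in homo. In bulk sums like these, fewer cells of a kind and less RNA per cell cannot be told apart. The CD8 gate was next split by Ccl5. Since Ccl5 was itself called in both contrasts of this gate, the split cannot tell them apart either.

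Most Gzmm transcripts lay in the Ccl5-positive cells of every genotype. These cells held 68.4% and 61.8% of Gzmm UMIs in WT, 95.05%, 89.0% and 77.4% in the het libraries, and 85.5% and 98.3% in homo. The same cells held 10.4% and 8.72% of all UMIs of the CD8 gate in WT, 41.8%, 32.3% and 34.9% in the het libraries, and 43.3% and 53.9% in homo. In the spleen they held 93.1% of Gzmm UMIs in WT, 85.4% in Y665H and 98.9% in Y665F, and 95.2%, 89.5% and 98.8% of Gzmb UMIs, beside 41.7%, 37.7% and 79.4% of all UMIs of the gate. Cells read more deeply have a greater chance to show a Ccl5 UMI and so to enter this class.

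Within Ccl5-positive cells Gzmm was at 85.0 and 67.0 CPM in WT, 104, 102 and 125 in the het libraries, and 155 and 138 in homo. The difference was smaller than in the whole gate. Its log2 fold change was 0.99 (SE 0.26) for homo and 0.56 (SE 0.255) for het. The edgeR test gave adjusted p of 0.165 and 0.957 (unadjusted 4.37e-04 and 0.0323). With 1 library left out the fold changes ran from 0.77 to 1.12 for homo and from 0.34 to 0.69 for het. None of the 6 genes tested in these cells was called for either contrast by edgeR or DESeq2, where 0.0204% of 4901 genes were called for homo and 0% for het (372 and 240 genes had an unadjusted p under 0.05). The 1 gene called for homo was Ccl5 itself, with a log2 fold change of 1.03 (adjusted p = 0.00796), so the gene that defines these cells differed within them by about as much as Gzmm. Gzma leaned the other way there, with log2 fold changes of -1.45 (SE 0.777, unadjusted p = 0.0686) and -1.54 (SE 0.709, unadjusted p = 0.035) that did not pass the edgeR test. With 1 library left out they ran from -3.40 to -0.29 for homo and from -2.57 to -0.40 for het. These cells held 11 and 5 Gzma UMIs in the WT libraries.

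In Ccl5-negative cells Gzmm was low, at 4.54 and 3.96 CPM in WT, 3.88, 6.05 and 19.5 in the het libraries, and 20.2 and 2.82 in homo. The 2 high values came from the 2 shallow libraries, and the log2 fold change for homo of 0.92 (SE 0.775) turned to -0.50 without them. None of the 6 genes tested was called, among 8703 of which 0.172% were called for homo and 0.0345% for het. Gzmb reached a log2 fold change of 3.15 (SE 0.972, adjusted p = 0.25) for homo here. It was 3.67 (adjusted p = 0.0278) with both shallow libraries left out and turned to -4.41 without homo replicate 2. That library held 18 Gzmb UMIs in 3 of these cells, 55.6% of them in 1 cell, and homo replicate 1 held none.

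**Figure D3:**
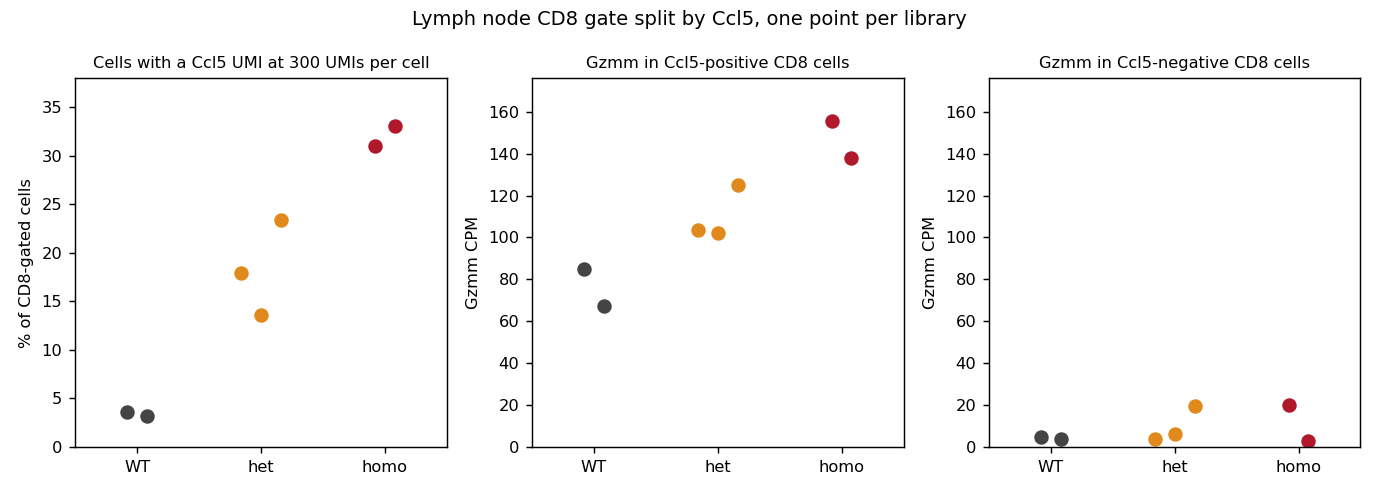
Lymph node CD8 gate split by Ccl5, 1 point per library. Left, cells with a Ccl5 UMI at 300 UMIs per cell (%), which went from 3.15% and 3.64% in WT to 31.1% and 33.0% in homo. Middle and right, Gzmm level (CPM, same scale) in Ccl5-positive cells, 67.0 to 155, and in Ccl5-negative cells, at most 20.2.

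Other genes of the killing machinery were counted from lists. Of 18 granule partners, which process, transport or dock the granule (among them Ctsc, Rab27a, Unc13d and Stx11), 15 could be tested in LN CD8 cells and 0 were called in either direction. Their median log2 fold change was -0.025 for homo and 0.07 for het. Beside these and the counts that follow, 1.23% of all genes tested there were called for homo and 0.506% for het. Called higher were 0.875% and 0.401%. The other 6 granzymes of the mouse (Gzmc to Gzmg and Gzmn) were too low to test in any gate. Of 5 genes that kill outside the granule, 1 rose in each contrast. That was Ifng, interferon gamma, at 2.71 and 7.51 CPM in WT, 18.6, 15.4 and 9.08 in the het libraries, and 24.4 and 35.0 in homo. Its log2 fold change was 2.46 (SE 0.321, adjusted p = 4.27e-05) for homo and 1.54 (SE 0.299, adjusted p = 0.0082) for het. Of 6 transcription factors of cytotoxic cells 4 could be tested and 1 rose: Tbx21, which encodes T-bet, at 25.7 and 12.2 CPM in WT, 46.3, 38.1 and 63.5 in the het libraries, and 57.3 and 52.8 in homo. Its log2 fold changes were 1.76 (SE 0.262, adjusted p = 2.71e-04) and 1.50 (SE 0.227, adjusted p = 8.38e-04). Without WT replicate 2 the call of Tbx21 was lost in both contrasts (1.08 and 0.82) and that of Ifng for het (2.64). The homo calls of both genes were lost without homo replicate 2 (Ifng 2.00, Tbx21 1.78), and the het call of Ifng without het replicate 1 (1.30). Among 8 naive T cell genes, Ccr9 alone passed, with a log2 fold change of -1.85 for homo.

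In LN CD4 cells 4 of the 8 genes could be tested (Prf1, Nkg7, Srgn, Lamp1), and none was called by edgeR or DESeq2 or had an unadjusted p under 0.05. Of 6398 genes 0.406% were called for homo and 0.219% for het. Prf1 was at 28.0 and 30.1 CPM in WT, 29.6, 23.8 and 16.5 in the het libraries, and 35.2 and 34.7 in homo, and Srgn at 327 to 612 over all 7 libraries. Gzmm was found in at most 1 CD4 cell of any LN library. Gzma UMIs came from 1 cell in each WT library, 18 and 4 of them, and from no cell of the 5 mutant libraries. No thinned share of any of the 8 genes gave an exact p under 0.05 in this gate, where 3.93% of 9512 genes did.

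The genotype effect was also compared between the CD8 and CD4 gates of the same libraries. Of 8888 genes 0.248% were called for het and 0.225% for homo, and of the 7 genes tested 1 was called for het, Gzma, and 0 for homo (1 had an unadjusted p under 0.05, and 0 were called by DESeq2). Het CD8 cells held 6.49, 2.52 and 16.3 CPM of Gzma and het CD4 cells none, while the WT CD4 gate owed its Gzma to 1 cell per library. For Gzmm the difference of the effects was 1.28 (SE 2.38) for homo and 2.96 (SE 2.19) for het on the log2 scale, which did not pass. With so few Gzmm UMIs in CD4 cells, a smaller rise there was not detectable at this depth.

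Gzmb UMIs were found in regulatory T cells of every LN library, and no difference passed. At 300 UMIs 0.276% to 6.41% of Foxp3 cells held one, against 0 in 6 of the 7 LN B gates and 0.111%, from 1 UMI, in that of het replicate 3. Levels were 7.26 and 93.6 CPM in WT, 162, 15.4 and 374 in the het libraries, and 38.0 and 57.3 in homo. The levels of the 3 genotypes overlapped, and between 37.5% and 100% of the UMIs sat in 1 cell. The log2 fold change was -0.21 (SE 0.947) for homo and 0.87 (SE 0.545) for het. Of the 3 genes tested in the Foxp3 gate (Gzmb, Srgn, Lamp1) 0 were called by edgeR or DESeq2. Of 3032 genes there 0.066% were called in each contrast by edgeR. Srgn had a log2 fold change of -0.52 for homo (SE 0.245, unadjusted p = 0.0447, adjusted p = 0.699). Gzma and Gzmk were not seen in any LN Foxp3 library. Thinned shares gave no exact p under 0.05 for the 8 genes, against 3.34% of 7476 genes.

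LN NK cells were few, and only 2 het and the 2 WT libraries reached the 10 cells needed for a fit. None of the 5 genes tested was called, nor was any of 597 genes (0%, with 20 at an unadjusted p under 0.05 and 0 called by DESeq2). Gzma was at 5604 and 4782 CPM in these het libraries, next to 4186 and 6309 in WT. Its log2 fold change was -0.02 (SE 0.25). The homo libraries had 9 and 6 NK cells, with Gzma at 3257 and 3115 CPM, of which 90% and 95% were in 1 cell.

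The spleen set Y665H, Y665F and WT side by side with 1 library each, so differences between the libraries were not tested and intervals cover counting error only. A gene was counted as past 2-fold when its CPM ratio to WT exceeded 2 in either direction among genes with at least 20 UMIs. Where WT held few UMIs, a gene entered this count only if the other library added enough. In the Y665F library Gzmb was past 2-fold higher in all 4 lymphocyte gates. Of all genes, 1.68% (CD8), 1.66% (CD4), 2.94% (Foxp3) and 2.02% (NK) were. The share past 2-fold in all 4 at once was not counted. In the CD4 and Foxp3 gates WT held 5 and 6 Gzmb UMIs, so Gzmb reached 20 there only through Y665F. The calls in these gates therefore add no support to those in CD8 and NK cells. In the Y665H library Gzmb was within 2-fold of WT in CD8 and NK cells, and CD4 and Foxp3 cells had too few Gzmb UMIs to be judged. Neutrophil genes (S100a8, S100a9, Camp, Ngp, Lcn2 and Ltf, summed) were at 321 to 439 CPM in the 4 lymphocyte gates of the Y665F and Y665H libraries and at 21.0 to 59.2 in WT. Lymphocytes do not make these transcripts. They were at 374 and 409 CPM in the B gate of the same libraries, and at most 0.79 CPM in the lymphocyte gates of LN. Their part in the values below was not tested.

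Spleen NK cells carried the most Gzmb. The level was 223 CPM in WT (interval 194 to 254), 272 in Y665H (236 to 312) and 1492 in Y665F (1388 to 1601). The Y665F value was 6.70 times WT (95% interval 5.75 to 7.83), while Y665H was 1.22 times WT (1.003 to 1.49). The share of NK cells with a Gzmb UMI was 43.1%, 49.3% and 92.9%, or 29.4%, 33.6% and 83.4% when thinned to 2000 UMIs, a depth that 201 of 209, 142 of 146 and 109 of 112 NK cells reached. In B cells that share was 0.153%, 0.314% and 0.474% before thinning, with median depths of 3791 to 3881 UMIs against 4235 to 4697.5 in NK cells. In NK cells of the Y665F library the transcript was close to universal. The B gate of the Y665H library held 79 Gzmb UMIs, of which 94.9% were in 1 cell.

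In NK cells Gzma, Prf1, Nkg7, Srgn and Lamp1 were within 2-fold of WT. Gzma was at 9292, 8314 and 13435 CPM in WT, Y665H and Y665F, 1.45 times WT for Y665F and 0.895 for Y665H. It was found in 92.3% to 93.8% of NK cells of all 3 libraries. Prf1 was 1.52 times WT in Y665F (1.38 to 1.68) and 1.27 in Y665H (1.16 to 1.40), and Nkg7 1.41 and 1.07. Srgn was 1.26 and 1.25 times WT. Lamp1 was 1.63 times WT in Y665H (1.20 to 2.22), with thinned shares of 14.5% in WT and 23.4%, and 1.02 times WT in Y665F. Gzmm went the other way, with 27 UMIs in 18 NK cells of WT, 25 in 18 of Y665H and 4 in 3 of Y665F, a ratio of 0.28 (0.0713 to 0.804) for Y665F. It was 0.75 when cells with B or myeloid UMIs were kept. In all, 1 of 7 genes with enough UMIs was past 2-fold higher in Y665F NK cells and 1 lower, where 2.02% of 7169 genes were higher and 5.62% lower (7.64% in all). In Y665H 0 of 7 were past 2-fold (4.04% of 7546 genes in either direction).

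In spleen CD8 cells 2 of 8 genes were past 2-fold in Y665F, Gzmb and Gzmm, both higher (1.68% of 11347 genes were past 2-fold higher, and 5.44% in either direction). In Y665H 0 of 8 were (2.6% of 10943 genes). Gzmb was at 16.3, 14.5 and 65.3 CPM in WT, Y665H and Y665F, a ratio of 4.0 (3.34 to 4.81) for Y665F and 0.889 (0.664 to 1.18) for Y665H. Its thinned share was 2.54%, 1.80% and 10.3% of the 1249, 735 and 1373 cells of at least 2000 UMIs.

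Gzmm was at 26.3, 26.2 and 72.2 CPM, 2.75 times WT in Y665F (2.37 to 3.19) and 0.997 in Y665H (0.801 to 1.24), with thinned shares of 3.31%, 3.36% and 10.2%. The WT and Y665H values were within counting error of each other. In B cells 0.139% to 0.317% of cells held Gzmm at the same thinned depth. As in the lymph node, Ccl5 differed as well: 26.2% of WT, 22.6% of Y665H and 66.4% of Y665F CD8 cells held a Ccl5 UMI at 2000 UMIs. Within Ccl5-positive CD8 cells the Y665F ratio was 1.53 (1.32 to 1.79) for Gzmm and 2.18 (1.82 to 2.63) for Gzmb, so that 1 of 8 genes stayed past 2-fold (4.87% of 10623 genes). The Gzmb ratio was 1.56 when cells with B or myeloid UMIs were kept.

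Gzma in spleen CD8 cells was at 231, 137 and 278 CPM. The Y665H library was lowest, at 0.593 times WT (0.544 to 0.647), and 0.41 times when predicted doublets were removed. Y665F was 1.20 times WT, but 0.651 times within Ccl5-positive cells. Within Ccl5-positive cells Y665H was 0.659 times WT. Gzmk was at 7.44, 5.35 and 7.56 CPM, with ratios whose intervals include 1. Nkg7 was 1.39 times WT in Y665F, Prf1 1.19, Srgn 1.14 and Lamp1 1.02. In Y665H these 4 lay between 1.03 and 1.23.

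In regulatory T cells Gzmb was higher in Y665F than in WT. The Foxp3 gate held 6 UMIs in 4 of 167 cells of WT, 6 in 3 of 116 of Y665H and 272 in 52 of 266 of Y665F. As levels these were 6.78, 10.1 and 171 CPM, and the Y665F ratio was 25.2 with a wide interval (11.4 to 69.3) because WT had so few. Thinned shares were 1.03%, 1.29% and 13.6%. The ratio was 6.88 when cells with B or myeloid UMIs were kept and 140 with predicted doublets removed. Gzma in this gate was 0.0968 times WT in Y665F and 0.226 in Y665H, but 73.9% of the 46 WT UMIs came from 1 cell. The thinned shares of Gzma were 3.59%, 2.21% and 1.07%, beside 2.86%, 1.85% and 1.21% in B cells, and no difference is read from them. Nkg7 in Y665H was 0.398 times WT, from 11 and 41 UMIs, but 43.9% of the WT UMIs came from 1 cell. The thinned shares were 3.91% and 4.24%, and the ratio was 0.958 when cells with B or myeloid UMIs were kept. Counted over the genes with at least 20 UMIs, 1 of 6 was past 2-fold higher and 1 lower in Y665F (2.94% and 2.76% of 8176 genes, 5.7% in all), and 0 of 4 higher and 2 lower in Y665H (2.48% and 2.31% of 7046, 4.8% in all).

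Spleen CD4 cells had little of the 4 granzymes. Gzmb was higher in Y665F than in WT, with 63 UMIs in 29 of 618 cells against 5 in 5 of 1020 in WT and 9 in 3 of 1004 in Y665H. The Y665F ratio was 18.5 (7.51 to 58.8), and 1 of 6 genes was past 2-fold there (1.66% of 10368 genes were past 2-fold higher and 5.26% in either direction). In Y665H 0 of 6 were (2.57% of 10681). A regulatory T cell with no Foxp3 UMI read falls into the CD4 gate. The Foxp3 gate held 266 cells beside 618 CD4 cells in Y665F, and 167 beside 1020 in WT. The part of such cells in the CD4 values was not tested. Gzma was at 33.7, 25.6 and 18.4 CPM in WT, Y665H and Y665F, above the 0.848, 1.62 and 15.7 of Gzmb. Its shares at 2000 UMIs were 2.66%, 2.05% and 1.12%, against the B cell values above, of which that in Y665H was the lower. Prf1 was at 29.0, 28.1 and 24.1 CPM, with ratios whose intervals include 1. Srgn was 1.33 times WT in Y665F and 1.15 in Y665H.

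**Figure D4:**
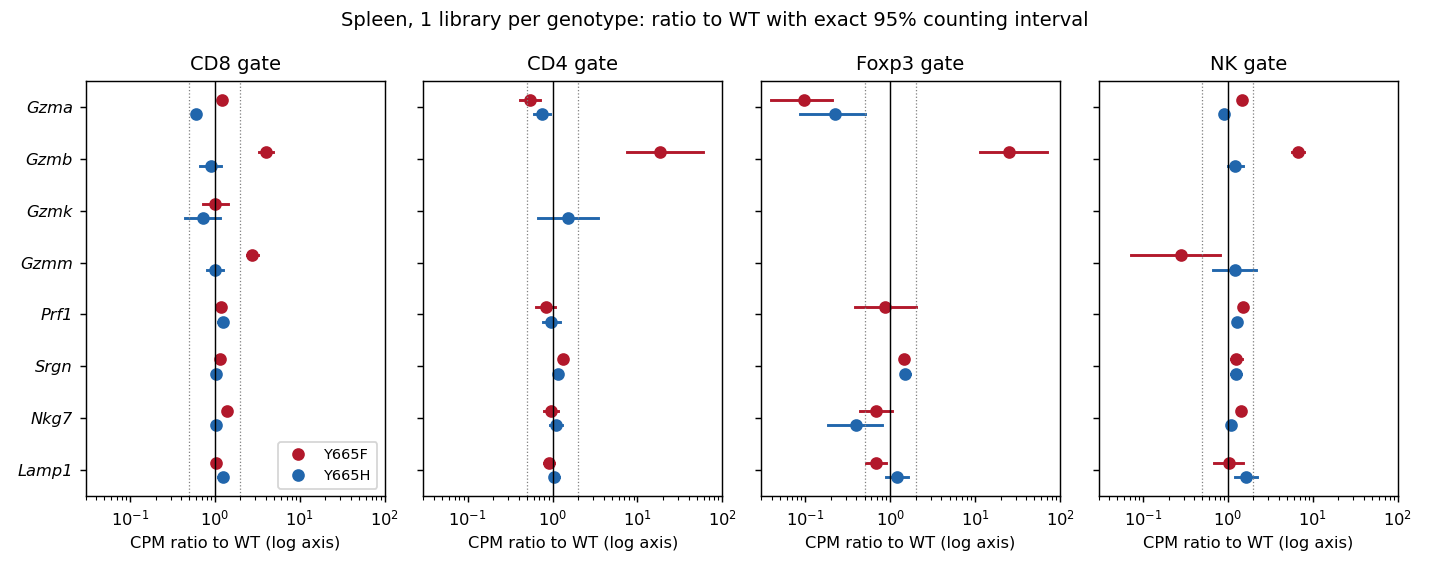
CPM ratio of Y665F (red) and Y665H (blue) to WT in 4 spleen gates, on a log axis, with the exact 95% counting interval; dotted lines mark 2-fold in each direction, and pairs with under 20 UMIs are not drawn. Gzmb lies to the right in all 4 gates for Y665F, at 4.0 in CD8, 18.5 in CD4, 25.2 in Foxp3 and 6.70 in NK cells. In CD4 and Foxp3 cells Gzmb reached 20 UMIs only through Y665F.

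**Figure D5:**
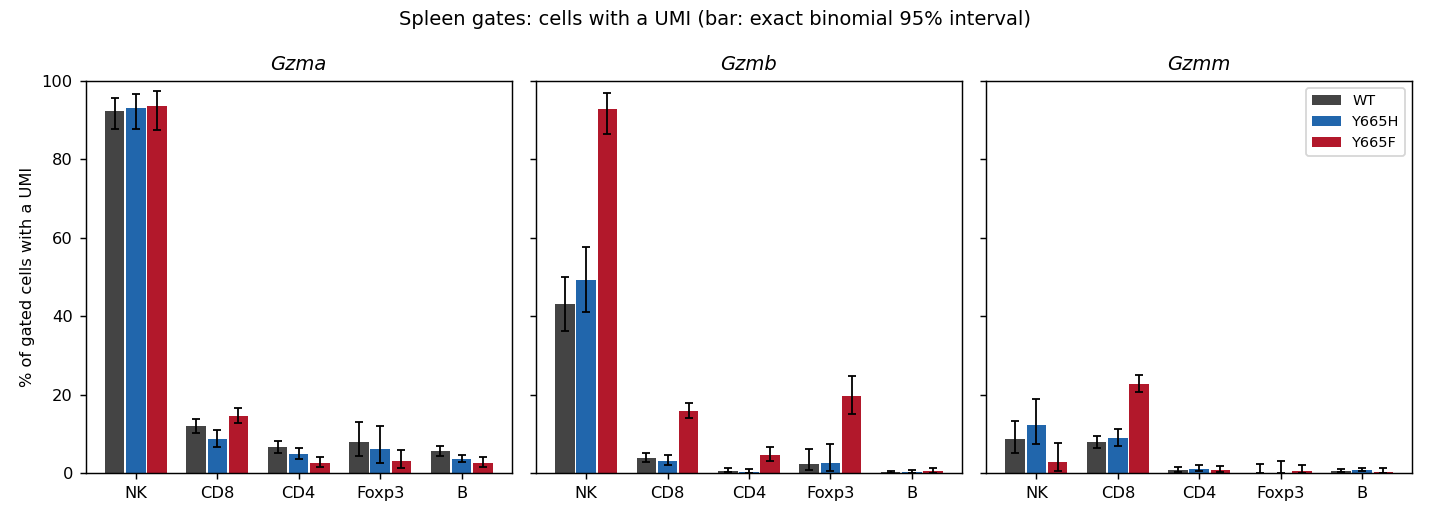
Share of gated spleen cells with a UMI of Gzma, Gzmb or Gzmm (%), unthinned, with the exact binomial 95% interval, for 1 library per genotype. Gzmb was found in 92.9% of Y665F NK cells against 43.1% in WT, while the Gzma share of NK cells was above 92% in all 3 libraries and that of CD4 and Foxp3 cells was of the size seen in B cells.

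Of the lists of granule partners and cytotoxic genes, few members were past 2-fold in the spleen. None of the 16 granule partners with enough UMIs was in Y665F CD8 cells (median log2 ratio 0.03, with -0.14 over all genes), and none of 17 in Y665F NK cells. In Y665F CD4 cells 2 of 16 were higher, the cystatin Cst7 (2.05) and the syntaxin Stx11 (2.54), and 1 of 16 was higher in Y665H, Stx11 (2.48), beside 1.66% and 1.395% of all genes. The transcription factor Eomes was at 7.63 CPM in WT CD4 cells and 0.745 in Y665F. Fasl, the ligand of the death receptor Fas, was at 10.48, 8.03 and 21.5 CPM in WT, Y665H and Y665F CD8 cells, 2.05 times WT in Y665F. In Y665H 1 of 17 granule partners was higher in NK cells, the inhibitor Serpinb9b (2.22), where 1.48% of all genes were past 2-fold higher. In Y665H Foxp3 cells 1 of 16 was higher, Stx11 (2.28), and 2 were lower, the protease Ctsw (0.482) and the granzyme B inhibitor Serpinb9 (0.495), beside 2.48% and 2.31% of all genes. In Y665F Foxp3 cells, where 2.94% of all genes were higher and 2.76% lower, 1 of 4 genes that kill outside the granule was higher, Fasl (3.52), and 1 lower, Lta (0.457). Of 4 transcription factors tested there 2 were higher, Tbx21 (2.34) and Prdm1 (2.16), which encodes Blimp-1. These 4 values came from 3 to 62 UMIs per library and gene. Fasl, Tbx21 and Prdm1 held 3, 5 and 16 UMIs in WT, so they reached 20 only with those of Y665F. In the LN CD8 gate Ifng and Tbx21 had risen, and in the spleen they were at 4.17, 6.50 and 7.12 CPM and at 18.6, 22.6 and 30.6 CPM in WT, Y665H and Y665F, under 2-fold.

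Some memory and naive T cell genes of the same gates were past 2-fold as well. Of the memory genes with enough UMIs, 2 of 9 were higher in Y665F CD8 cells, 3 of 9 in CD4, 1 of 8 in Foxp3 and 1 of 9 in NK cells, where 1.68%, 1.66%, 2.94% and 2.02% of all genes were. Their median log2 ratios were 0.79, 0.66, 0.57 and -0.14, with -0.14, -0.15, -0.075 and -0.099 over all genes. The 2 in CD8 cells were Ccl5 (3.11) and Il2rb (2.38). In Y665F CD4 cells Il2rb (2.60), Ly6c2 (2.44) and S100a4 (2.51) were higher and Eomes, which is in this list too, was lower. S100a4 was higher also in Y665F Foxp3 (2.84) and NK cells (2.38). Of 8 naive genes tested in T cells, 1 was lower in CD8, 1 in CD4 and 2 in Foxp3 cells of Y665F, and of 5 tested in NK cells 1 was lower, beside 3.75%, 3.60%, 2.76% and 5.62% of all genes. The chemokine receptor gene Ccr9 was lower in Y665F CD8 (0.253), CD4 (0.332) and Foxp3 cells (0.334), and Tcf7, a transcription factor gene of naive T cells, in Foxp3 (0.424) and NK cells (0.431). Igfbp4 was higher in Y665F CD4 (2.18) and Foxp3 cells (2.90). In Y665H, 2 of 8 memory genes were lower in Foxp3 cells, Ccl5 (0.299) and Ly6c2 (0.433), and 1 of 9 in NK cells, Ly6c2 (0.478), beside 2.31% and 2.56% of all genes. Their part in the granzyme ratios was not tested.

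The granzymes did not share cells evenly. In spleen CD8 cells of WT, 76.0% of the 50 Gzmb-positive cells also held Gzma, against 9.30% of Gzmb-negative cells. In Y665H it was 60.9% of 23 against 6.96%, and in Y665F 54.1% of 222 against 7.11%. As background, 5.51%, 3.64% and 2.53% of B cells held a Gzma UMI in WT, Y665H and Y665F. These B cells were read to medians of 3881, 3819.5 and 3791 UMIs. A Gzma-positive CD8 cell may therefore hold free RNA only, and the part of such cells in the shares given here was not tested. In WT and Y665F Gzmk was often found with Gzmb: 61.8% of the 34 Gzmk-positive cells held Gzmb in WT and 79.3% of 58 in Y665F. In Y665H it was 4 of 12, and 2 of those 12 held Gzma. Gzmm was found in 10.46% of Gzma-positive and 7.50% of Gzma-negative CD8 cells of WT, in 7.69% and 8.97% of those of Y665H, and in 23.5% and 22.6% of those of Y665F. For Gzmb-positive and Gzmb-negative cells it was 12.0% and 7.69% in WT, 1 of 23 cells and 9.004% in Y665H, and 30.6% and 21.2% in Y665F. For Gzmk-positive and Gzmk-negative cells it was 17.6% and 7.59% in WT, and 39.7% and 22.0% in Y665F, where the former were read to a median of 4037 UMIs and the latter to 8625.5. Median depth was 4971.5 UMIs in Gzma-positive and 8707 in Gzma-negative Y665F cells, so the former were the less deeply read. Of the Gzmm-positive LN CD8 cells, 93.9% to 100% had a T cell receptor contig, as had 85.7% to 100% of the Gzmb-positive ones.

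Across the 15 spleen pseudobulks (5 gates by 3 libraries), the genes most like Gzma, Gzmb, Gzmk and Prf1 in level were listed as a description. The points share 3 libraries, and NK cells set much of the range. Of 5857 genes, those closest to Gzma by Pearson correlation of log2(CPM + 10) were the NK receptor genes Klrk1, Klre1 and Klrc2 (0.99 each), which stayed at 0.89 to 0.90 over the 35 LN pseudobulks. Closest to Prf1 were Sytl3 (0.996), Il18rap (0.99) and Padi2 (0.99), at 0.76, 0.83 and 0.90 in LN. For Gzmb they were Cd48 (0.97), Ifngr1 (0.94) and Ncbp2 (0.93), with 0.20, 0.81 and -0.21 in LN. For Gzmk, whose mean level was 2.96 CPM, they were Atp8b4, H2afj and Runx3 (0.93, 0.93 and 0.90 in spleen, at most 0.41 in LN).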

How the data were processed

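The authors deposited raw UMI counts per gene and barcode for each library, which were used as deposited. Per the labels they come from Cell Ranger 5.0, while the file headers give 5.0.0 for LN and 6.0.0 for spleen, on the mouse genome GRCm38 (mm10). Labels and methods of the study differ on whether the 3′ or the 5′ end was read, so levels were compared only within a tissue. The study named Seurat for quality control without thresholds, and its cell filters may differ from those used here. The 7 T cell receptor tables list contigs per barcode and gave the share of gated cells with a contig. Of the remaining files, the bone marrow libraries were not used.

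The 8 genes, the lists and the gates were chosen with earlier results of these data known. Genes named in the text are these 8, the called members of the fixed lists, and the 3 genes most correlated with each of 4 of them. Markers of the gates and of other cell types and uncalled list members are named besides, as are called memory and naive genes, which were chosen after their values were seen. Predicted doublets were kept, and removed as an alternative (0.8% per 1000 barcodes). Counts were summed per library and gate of at least 10 cells and tested with edgeR 4.0.16 (quasi-likelihood, TMM, filterByExpr; R 4.3.3), with all 3 LN genotypes in 1 model, and with the library as a term for the CD8 against CD4 comparison. Calls needed a Benjamini-Hochberg adjusted p under 0.05 over all genes tested and a log2 fold change over 1 in size. The SE was taken from the fold change and its quasi-likelihood F. Shares are the expected share after drawing 300 (LN) or 2000 (spleen) UMIs per cell, tested in LN by exact permutation of the Jonckheere-Terpstra statistic. Spleen intervals are exact Poisson or binomial at 95%, the intervals of ratios are conditional on the summed counts, and both cover counting error only. Totals per gate ranged with depth. The Foxp3 gate, for example, held 16050 to 618358 UMIs in LN libraries and 596136 to 1590502 in the spleen. DESeq2 1.42.0 served as an alternative, with other gates, depths, filters and left-out libraries. The fits were also run on simulated counts with known changes. All genes had the same spread there, so this does not test genes whose UMIs sit in single cells. Strand use in counting is not given in the sources used here. Samples were not paired by replicate number, since the labels give the numbers no meaning. Same-numbered LN libraries correlated at -0.08 to 0.05 in their deviations from the group means in CD8 cells. In a group of 2 libraries these deviations mirror each other, so the values cannot exclude a shared batch.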

Additional observations from a re-analysis of the deposited data

Results flagged for a closer look

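The genotype effect on Gzma differed between the CD8 and the CD4 gate of the lymph node for het against WT, by a fitted 7.57 (SE 1.39) on the log2 scale, with an adjusted p of 3.93e-05 by the edgeR quasi-likelihood test of the gate by genotype term. For homo against WT the fitted difference was 8.10 and was not called. All 3 het libraries, like the homo libraries, held 0 Gzma UMIs in the CD4 gate. The size therefore depends on the prior count of the fit and is no measured fold. In WT the CD4 gate held 18 and 4 UMIs, each from 1 cell. The difference did not pass with DESeq2 (5.22, adjusted p = 1), without WT replicate 1 (6.01, adjusted p = 0.472) or without het replicate 1 (6.42, adjusted p = 0.907).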

How the results depend on the processing

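Shares at 300 UMIs rest on few positive cells, gates of under 10 NK cells allow no fit, and the spleen has 1 library per genotype; depth limits what can be seen of Gzmm in CD4 cells and of Gzmk in LN. The fold change of Gzmm in LN CD8 cells kept its direction and passed the test for both contrasts under every alternative run. DESeq2, other gates, filters and left-out libraries were among them. The Gzmm share trend was not under 0.05 by the exact permutation test without thinning, nor with both shallow libraries left out. The latter leaves too few libraries for a p under 0.05. Over the named genes' fold changes 661 of 711 alternatives kept direction and side of the threshold, 24 reversed, 7 became called and 19 were lost; over the members' remaining fold changes 475 of 556 did, 80 reversed and 1 became called. The cause of the changes listed here was not tested unless said.

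Genes called, with DESeq2, were 17 (het) and 59 (homo) in CD8 cells against 48 and 117, 1 and 2 in CD4 cells against 14 and 26, 0 and 0 in Foxp3 cells against 2 and 2, 0 and 1 in Ccl5-negative cells against 3 and 15, and 3 and 3 for the CD8 against CD4 comparison against 22 and 20; there DESeq2 called 0 of the 8 genes for het against 1. With no filter on low counts they were 81 (CD8, het), 46 (CD4, het), 12 and 46 (Ccl5-negative), 7 (Ccl5-positive, homo) and 4 (Foxp3, homo). With at least 500 genes per barcode they were 29 (CD4, het), 11 and 23 (Foxp3). With 2 marker UMIs they were 13 (CD4, homo), 7 (Ccl5-negative, homo), 6 and 0 (Foxp3). Without the exclusion of B and myeloid UMIs they were 29 (CD4, het), 2 (Ccl5-positive, homo, against 1), 8 (Foxp3, homo) and 1 (NK, het, against 0). With both shallow libraries left out they were 5 (Ccl5-negative, het), 5 (Ccl5-positive, homo), 10 and 20 (Foxp3).

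With the replicate number as a block the counts were 30 (CD8, het), 13 (CD4, homo), 23 (Ccl5-negative, homo), 0 and 1 (Foxp3) and 1 (NK, het). The labels do not say that the numbers pair the samples.

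Of the 8 genes, Gzmb became called in CD8 cells for homo (2 genes against 1) and in Ccl5-negative cells (1 against 0) with both shallow libraries left out or no filter. Gzma became called in CD4 cells for het (1 against 0) with 500 genes per barcode or no filter, with het at 0 UMIs. The log2 fold change of Gzma in CD8 cells for het, 0.12, was -0.12 with 500 genes, -0.052 with both shallow libraries left out, -0.59 without the exclusion and -0.31 with the block, and for homo -0.11 without the exclusion. Gzma in NK cells for het, -0.022, was 0.054 with 500 genes, 0.0079 without the exclusion and 0.0013 with the block. The calls of Ifng for het (1.53) and Cd44 for homo (1.05) were lost with DESeq2, and that of Cd44 also with 2 marker UMIs (0.89) or both shallow libraries left out (0.95). Gzmm in Ccl5-negative cells for homo was -0.50 with both shallow libraries left out. Share trends under 0.05 in CD8 cells, 2 of 8 genes, were 1 with 500 genes, and 0 with both shallow libraries left out or without thinning, where the exact permutation p for Srgn was 1.

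Spleen genes past 2-fold were, in Y665F, 2 and 3 in CD4 cells (2 marker UMIs, no exclusion) against 1, 2 and 0 in Ccl5-positive CD8 cells (the same) against 1, 1 in Foxp3 cells (2 marker UMIs or doublets removed) against 2, and 1 in NK cells (no exclusion) against 2. In Y665H they were 1 in CD4 cells (2 marker UMIs), 1 in CD8 and in Ccl5-positive cells (doublets removed), each against 0, and 1 in Foxp3 cells (2 marker UMIs, doublets removed or no exclusion) against 2. The Foxp3 Gzma ratio in Y665H was 2.26 with no exclusion.

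Leaving out 1 library at a time moved the genes called to 9 to 54 (CD8, het), 36 to 140 (CD8, homo), 6 to 47 (CD4, het), 2 to 44 (CD4, homo), 0 to 6 (Ccl5-negative, het), 5 to 32 (Ccl5-negative, homo), 0 to 7 (Ccl5-positive, homo), 0 to 4 (Foxp3, het), 0 to 6 (Foxp3, homo), 0 to 4 (NK, het), 4 to 23 and 1 to 21 (CD8 against CD4, het and homo). Of the 8 genes, 1 to 2 were called in CD8 cells for homo, 0 to 1 in CD4 cells for het and 0 to 2 for CD8 against CD4, het. Log2 fold changes ran from -0.57 to 0.56 (Gzma, CD8, het), -0.97 to 0.92 (Gzma, CD8, homo), -0.40 to 1.59 (Gzmb, CD8, het), -0.026 to 0.16 (Prf1, CD8, homo), -4.41 to 4.19 (Gzmb, Ccl5-negative, homo), -0.50 to 2.24 (Gzmm, Ccl5-negative, homo), -0.53 to 3.89 (Gzmb, Foxp3, het), -1.06 to 2.78 (Gzmb, Foxp3, homo), -0.30 to 0.33 (Gzma, NK, het), and, for CD8 against CD4, -0.073 to 4.64 (Gzmm, het) and -1.76 to 6.08 (Gzmm, homo), lowest without WT replicate 1. Share trends under 0.05 were 1 to 2 in CD8 and 0 to 1 in Foxp3 cells.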
